A study of Homo sapiens with 6 samples.

Results

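PANC1, a human cell line derived from a pancreatic ductal carcinoma, kept 3034 stretches of open chromatin that lay away from the starts of protein-coding genes and were called both with and without gemcitabine. A region was taken when a DNaseI peak of the gemcitabine library overlapped a peak of the vehicle library by at least 1 bp and lay more than 1 kb from every protein-coding transcription start of Gencode on hg19, with the mitochondrial genome left out. The regions were thus chosen by the peak calls of both libraries and by position, and openness itself is given below only as a description. These regions made up 28.4% of the 10695 peaks called after gemcitabine. Both arms were PANC1 cells, given either 50 nM gemcitabine, a nucleoside analog used against pancreatic cancer, or DMSO as vehicle. Cells for RNA were treated for 48 hours, a time taken from the methods of the study since the labels give none. For DNaseI the study names the conditions of its RNA-seq and siRNA screen and gives no separate time. DNaseI-seq, in which nuclei are cut with the nuclease where DNA is accessible, had 1 library in each arm, so values of peaks carry no replicate error and no difference between the arms in openness was tested. RNA-seq had 2 libraries in each arm, described in the study as biological replicates, with 13194533 to 15766237 fragments assigned to genes.

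Open chromatin far from gene starts mostly holds enhancers, insulators and the starts of non-coding transcripts. In epithelial and carcinoma cells many distal enhancers carry sites for AP-1, the dimers of FOS and JUN proteins that respond to growth and stress signals, and for TEAD proteins, the DNA-binding partners of YAP and TAZ in the Hippo pathway. Promoters, in contrast, are usually rich in CpG and in sites for SP/KLF, ETS and NRF1 proteins. CTCF marks insulators and the anchors of chromatin loops. The keratins KRT7, KRT8 and KRT18 and the mesenchymal filament gene VIM, known in PANC1, were expressed at 1604, 486, 346 and 417 FPKM (fragments scaled to transcript length and library size) as the mean of the vehicle libraries, and KRT19 at 3.14 FPKM. Of the markers of other cell types looked at, ALB (hepatocytes), PRSS1 (acinar cells) and INS (beta cells) had 0 fragments in all 4 libraries. The levels of the others, PTPRC (leukocytes), PECAM1 (endothelial cells) and CPA1 (acinar cells), are not given here. CPA1 was nearest to a shared region, 5996 bp from its start.

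The sequences below are shown because each belongs to a strong shared region and carries 1 kind of motif that the later counts rest on. For each motif the region with the highest rank in both libraries was taken among regions whose sequence occurs once in the genome. Each stretch is 121 bases of the plus strand of GRCh37 (hg19) round the match, which is in capitals, and a match is a description of letters and not a site shown to be bound.
AP-1, chr9:132096422-132096542, in the non-coding transcript LINC01503: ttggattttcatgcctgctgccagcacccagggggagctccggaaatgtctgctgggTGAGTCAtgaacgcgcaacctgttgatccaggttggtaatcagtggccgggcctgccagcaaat
TEAD, chr3:138587050-138587170, between genes, nearest to PIK3CB: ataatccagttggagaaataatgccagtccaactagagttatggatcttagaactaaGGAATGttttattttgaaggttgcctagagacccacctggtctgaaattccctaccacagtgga
RUNX, chr17:56756898-56757018, in an intron of TEX14: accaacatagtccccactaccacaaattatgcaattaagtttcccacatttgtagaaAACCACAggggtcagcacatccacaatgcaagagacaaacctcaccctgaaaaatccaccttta
SP/KLF, chr20:26189620-26189740, in the non-coding transcript MIR663AHG: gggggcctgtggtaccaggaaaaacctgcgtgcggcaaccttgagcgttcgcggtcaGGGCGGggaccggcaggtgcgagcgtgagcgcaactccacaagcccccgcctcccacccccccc
ETS, chr9:137030051-137030171, at the small nuclear RNA gene RNU6ATAC, nearest to WDR5: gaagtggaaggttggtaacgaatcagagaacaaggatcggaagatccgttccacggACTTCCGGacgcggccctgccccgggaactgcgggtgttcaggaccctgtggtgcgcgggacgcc
NRF1, chr17:16342077-16342197, at the non-coding gene SNHG29, nearest to TRPV2: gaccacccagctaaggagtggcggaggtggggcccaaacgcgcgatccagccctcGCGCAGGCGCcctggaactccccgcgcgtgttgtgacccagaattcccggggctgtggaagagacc
CTCF, chr19:41076684-41076804, in a coding exon, nearest to the start of SHKBP1: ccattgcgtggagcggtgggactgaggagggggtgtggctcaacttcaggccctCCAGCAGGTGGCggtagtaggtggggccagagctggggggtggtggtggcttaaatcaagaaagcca
Of these 7 regions, 6 overlapped a start annotated as non-coding, and the TEAD region was 21175 bp from the nearest one.

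Overlap between the arms was less frequent away from starts than at them. Of 6631 gemcitabine peaks more than 1 kb from a start, 45.8% met a vehicle peak, and of 4064 peaks within 1 kb of a start, 61.7% did. The shared distal regions were 54.7% of all 5543 shared gemcitabine peaks. A further 3597 gemcitabine peaks and 3100 vehicle peaks lay far from starts and overlapped no peak of the other arm. The median region was 1094.5 bp wide after gemcitabine and its vehicle partner 969.5 bp, with a median overlap of 888 bp and a median distance of 95 bp between the midpoints. Of the 3034 regions, 2873 (94.7%) overlapped by at least 50% of each peak, and 6 met 2 vehicle peaks. The gemcitabine peak was the wider one in 2045 regions (67.4%).

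The regions were spread over introns, intergenic stretches and non-coding transcripts, and few touched an exon. By the midpoint of the peak, 1249 regions (41.2%, Wilson 95% interval 39.4 to 42.9%) lay in an intron of a protein-coding gene, 1114 (36.7%, 35.0 to 38.4%) between genes, 609 (20.1%) in a non-coding transcript outside protein-coding genes and 62 (2.04%) in an exon. These intervals and all others for peaks cover counting error only. Of the exonic regions, 45 were in an untranslated part and 17 in coding sequence. The distal regions called in only 1 arm had nearly the same make-up, with 45.3% of the gemcitabine-only and 41.0% of the vehicle-only regions in introns and 34.7% and 38.6% between genes. Among 2509 shared regions at starts, 24.3% were in introns and 26.8% in untranslated exons, a difference that the distance rule itself fixes in part.

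**Figure D1:**
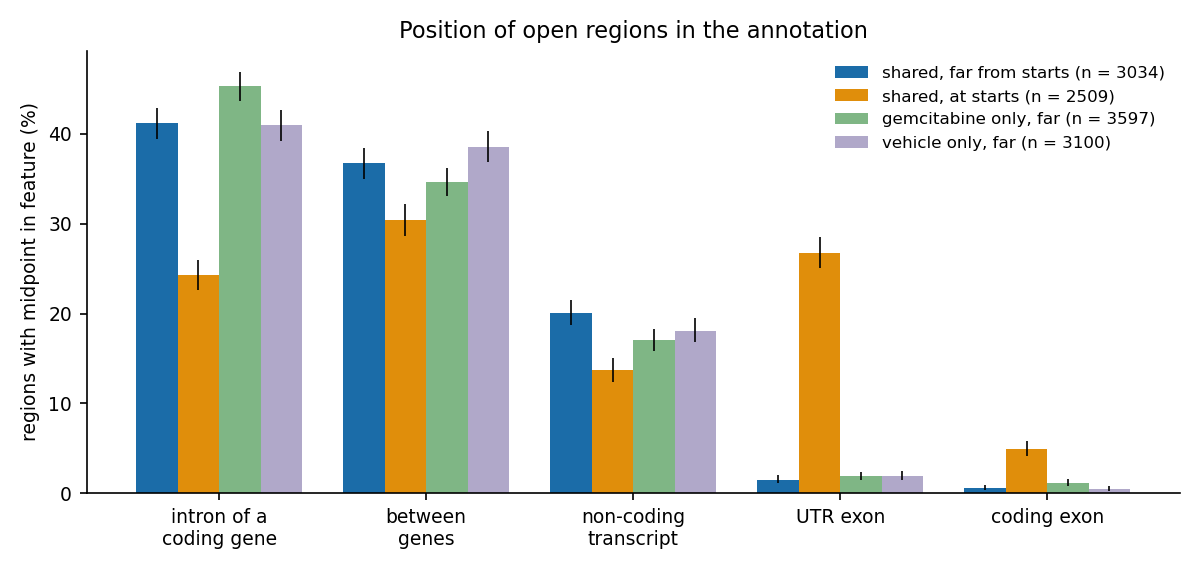
Share of regions (y axis, percent) by what the Gencode annotation holds at the midpoint of the peak, for the shared regions far from starts, the shared regions at starts and the far regions called only after gemcitabine or only with vehicle; bars are shares and lines are Wilson 95% intervals. The shared far regions lay mostly in introns (41.2%) and between genes (36.7%), with 2.04% in exons, and the 3 far sets resembled each other more than the set at starts.

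The median distance to the nearest protein-coding start was 36054.5 bp, with quartiles of 13851 and 98072 bp. Only 277 regions (9.13%) were within 5 kb of a start, 1512 (49.8%) lay between 5 and 50 kb, 1121 (36.9%) between 50 and 500 kb, and 124 (4.09%) farther away. The farthest lay 1930164 bp from the start of CDH6, a cadherin gene. Of all 3034 regions, 504 (16.6%) were within 1 kb of the start of a non-coding transcript, so that "far from starts" holds for protein-coding transcripts only. Such starts include those of non-coding transcripts of protein-coding genes. At the limit of the rule, the nearest regions kept were 1001 bp from GYPC and 1014 bp from SPATA2L, and the nearest left out were 993 bp from RAET1E and 975 bp from SH3TC1. The smallest overlaps that still counted as shared were 17 bp near RNLS and 33 bp near TMEM52B. Per megabase, the regions were densest on chromosomes 19 (1.86), 17 (1.67) and 20 (1.67) and, leaving out Y, sparsest on chromosome X (0.451).

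The base composition of the shared distal regions was close to that of the genome. Median GC content of the 300 bp round the midpoint was 43.7%, beside a mean of 40.9% over all 300 bp windows of the genome, whose median was not taken. The other medians were 62.0% in the shared regions at starts, 43.0% in the gemcitabine-only and 39.7% in the vehicle-only far regions. Sequence like a CpG island was found in 153 regions (5.04%), against 66.2% of the shared regions at starts. Among the far regions within 1 kb of a non-coding start 17.3% had such sequence, and among those away from every start 2.61% did.

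AP-1 and TEAD letters were present in larger shares of these regions than promoter motifs, although all of them exceeded their share of genome windows. The shares do not rank the motifs, which differ in how often they occur in genome windows, from 15.5% for TEAD to 0.045% for NRF1. Relative to genome windows, TEAD letters were raised less than those of SP/KLF, ETS or NRF1. In the 300 bp round the midpoint, TGACTCA (AP-1, either strand) was present in 753 regions (24.8%, 23.3 to 26.4%), beside 4.58% of all 300 bp windows of the genome, 4.95% of 35116 RefSeq promoters of the same length (GRCh38.p14) and 4.03% of the shared regions at starts. GGAATG, the TEAD core, was present in 775 regions (25.5%, 24.0 to 27.1%), beside 15.5% of genome windows and 14.0% of promoters. Of the 2681 single-copy regions, 664 held it. The rest of the 775 had a repeated run in these 300 bp, and some held many matches, such as 33 in a region nearest to USP9Y. TGTGGTT, read by the RUNX proteins, was found in 8.97% against 5.76% of genome windows. TGACGTCA, the CRE read by ATF and CREB proteins, was rare in all sets. It stood in 1.94% of the shared far regions, 0.97% of the gemcitabine-only and 0.74% of the vehicle-only far regions. The shared regions at starts had more, 3.35%, while promoters had 1.85% and genome windows 0.105%. At least 1 of AP-1 and TEAD was present in 1338 regions (44.1%).

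The share with AP-1 letters separated the shared far regions from those called after gemcitabine alone more than from those called with vehicle alone. It was 18.3% (17.1 to 19.6%) in the gemcitabine-only and 22.9% (21.4 to 24.4%) in the vehicle-only far regions, so that only the first interval does not overlap that of the shared regions. For TEAD the shares were 23.5% and 23.3%. The peaks called in 1 arm also ranked lower, at a median score percentile of 32.3 and 30.7 beside 66.3 and 63.1 for the shared far regions in the gemcitabine and vehicle lists; the part of peak strength in these shares was not tested. Among the shared far regions of single-copy sequence (no 32-base run of the 300 bp round the midpoint occurs elsewhere in the genome), 26.4% held AP-1 letters. Their shares were 22.4%, 28.2%, 28.1% and 27.0% from the weakest to the strongest quartile of the lower percentile.

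GGGCGG, read by SP and KLF proteins, was in 335 shared far regions (11.04%), in 64.4% of the shared regions at starts and in 4.16% of genome windows. CCGGAAGT (ETS) was in 16 regions (0.53%) and GCGCNTGCGC (NRF1) in 21 (0.69%). The shared regions at starts had 8.45% and 12.9% for these, and genome windows 0.14% and 0.045%. Of the single-copy regions with ETS or NRF1 letters, 60% lay within 1 kb of a non-coding start. In single-copy regions the SP/KLF share fell with distance from a coding start, from 25.7% at 1 to 5 kb through 11.6% and 7.41% to 3.45% beyond 500 kb, whereas that of AP-1 was 24.1%, 26.4%, 27.0% and 27.6% over the same steps. The CTCF motif was in 14 regions (0.46%), less than in the far regions called in 1 arm (0.89% and 1.10%) and more than in genome windows (0.11%). The motif of HNF1, a factor of the liver and pancreas, was in 0 of 3034 regions, which says only that its 13 letters were not in these windows. The FOX letters TGTTTAC stood in 7.28% of the regions and in 4.67% of genome windows. For AGATAAG, read by GATA3 and GATA6, the shares were 4.71% and 4.35%.

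**Figure D2:**
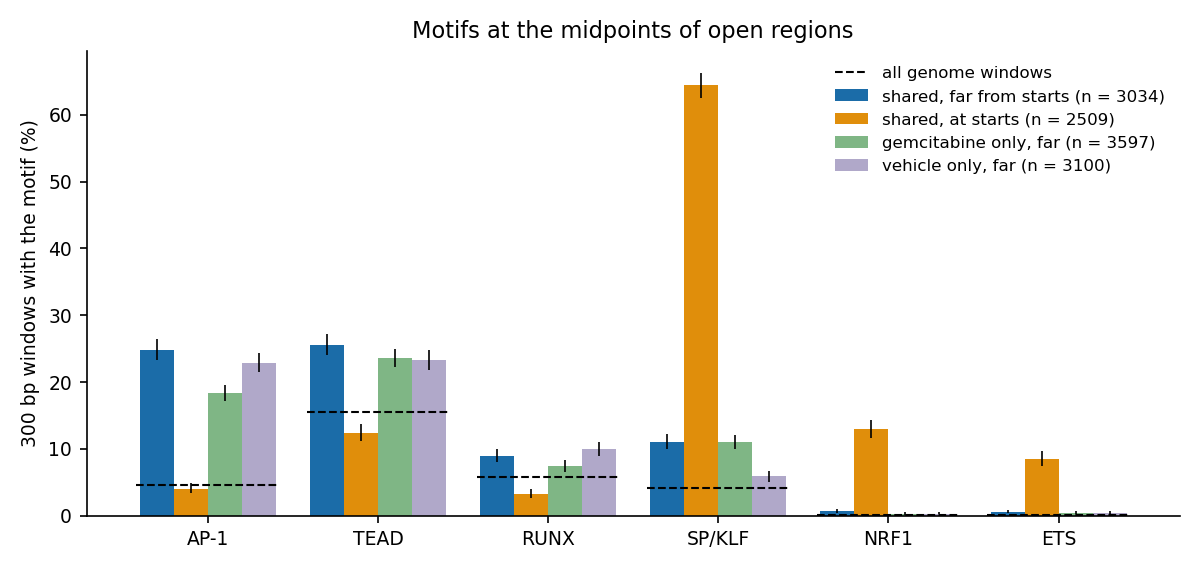
Share of regions (y axis, percent) that hold each motif in the 300 bp round the peak midpoint, in the shared far regions, the shared regions at starts and the far regions of 1 arm only; lines are Wilson 95% intervals and the dashed mark is the share of all 300 bp windows of the genome. AP-1 stood at 24.8% in the shared far regions and 4.03% at starts, and SP/KLF at 11.04% and 64.4%.

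AP-1 and TEAD letters did not gather in the same regions. TEAD letters were in 25.2% of the 753 regions with AP-1 and in 25.6% of the others, and both stood together in 190 regions (6.26%). More than 1 AP-1 match was present in 111 regions (3.66%). The longer GCTGAGTCA of NFE2 and MAF proteins, which holds the AP-1 letters, was in 2.87% of the regions.

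The matches lay near the middle of the peaks. Over the 2681 regions with single-copy sequence, AP-1 had 1.08 matches per kb within 100 bp of the midpoint and 0.175 at 1000 to 1500 bp, a ratio of 6.17. The ratio was 1.72 for TEAD, 1.90 for RUNX and 2.36 for SP/KLF. In the shared regions at starts the AP-1 ratio was 1.04 and that of SP/KLF 6.16, and in the gemcitabine-only far regions the AP-1 ratio was 4.09.

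**Figure D3:**
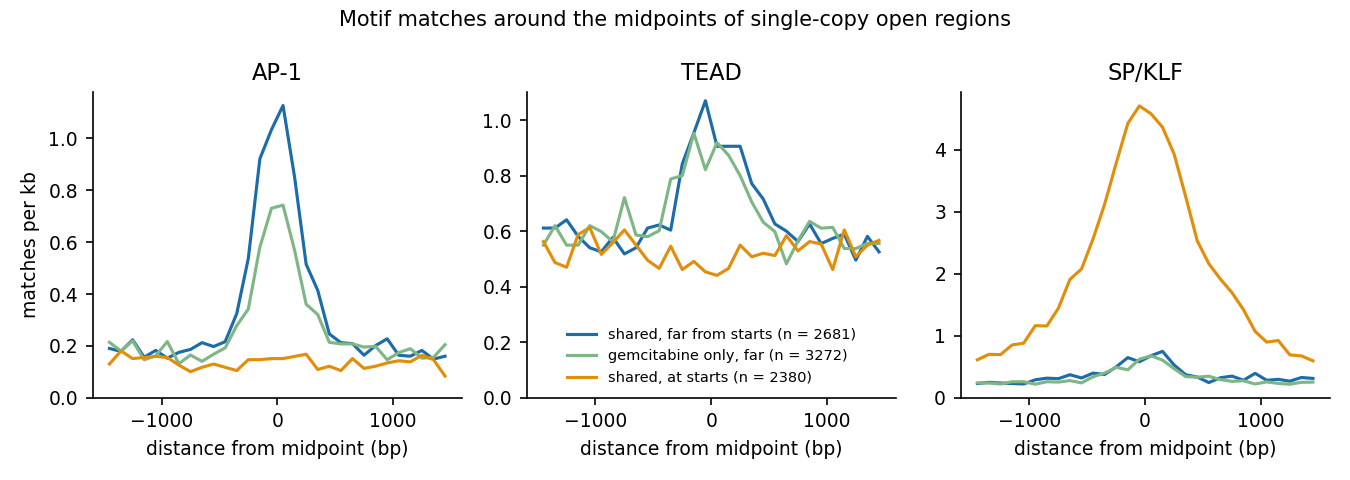
Motif matches per kb (y axis) against distance from the peak midpoint in bp (x axis) for AP-1, TEAD and SP/KLF, in single-copy regions of the shared far, shared at starts and gemcitabine-only far sets. AP-1 rose from 0.175 matches per kb at 1000 to 1500 bp to 1.08 within 100 bp of the midpoint in the shared far regions and stayed flat at starts, while SP/KLF peaked at starts (4.65).

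The highest scores belonged to repeated sequence. A 32-base run that occurs again in the assembly was present in the 300 bp round the midpoint of 353 regions (11.6%). Among them were 9 of the 10 and 22 of the 30 regions that ranked highest in both libraries. The score, -10 log10 of the peak caller's p-value, reached its top value of 3100 in both arms at chr1:121483856-121485602, beside the centromere, and stood at 2231.53 and 3100 at chr6:58775717-58779851, also the widest region with 4135 bp. What part the repeated copies have in these scores was not tested. Regions with repeated runs held AP-1 letters in 12.7% and lay between genes in 60.3%. All 12 regions on chromosome Y were of this kind.

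Without repeated runs in the 300 bp round the midpoint, the highest-ranked region was chr20:26188615-26190679 in the microRNA host transcript MIR663AHG. Its scores were 654.85 after gemcitabine and 1180.13 with vehicle, and its sequence is among those printed. It was followed by chr9:73215407-73217482, nearest to KLF9, a zinc-finger regulator (281.11 and 324.21), by the RNU6ATAC region near WDR5, a chromatin scaffold protein (276.85 and 332.62), and by chr11:47878909-47880540 near the nucleoporin gene NUP160 (270.25 and 264.15). The region in LINC01503 with the printed AP-1 match had 375.35 and 259.87. These sequences were open in both libraries at a rank above the 99th percentile, given here as a description since the peak calls chose them.

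Rank within each list was kept only in part. Over the 3034 regions the gemcitabine and vehicle percentiles had a Spearman correlation of 0.445 (0.426 over single-copy regions), as a description across regions of 2 libraries. The percentile rose by more than 25 points in 655 regions and fell by more than 25 in 526. The largest rise was at chr1:65547723-65549039, 14286 bp from the start of JAK1, a cytokine receptor kinase, from percentile 0.51 to 94.0. Near LDHA, which makes lactate from pyruvate, chr11:18405168-18406380 went from 4.49 to 91.8. The largest fall in single-copy sequence was at chr16:77332166-77333480 near ADAMTS18, a secreted metalloprotease, from 84.6 to 0.80, and near LRP5, a Wnt co-receptor, chr11:68121547-68122348 went from 94.6 to 12.7.

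AP-1 letters were less frequent where the rank rose after gemcitabine. In single-copy regions split into quartiles of the change in percentile, the share with AP-1 was 30.6% (27.2 to 34.1%) in the quartile with the largest falls, then 29.7% and 25.4%, and 20.0% (17.1 to 23.2%) in the quartile with the largest rises. TEAD shares were 23.4%, 24.8%, 23.9% and 27.0% in the same order, with no such decline. The outer quartiles had similar median lower percentiles (33.9 and 31.0), while the median width was 974 bp in the first and 1172 bp in the last. The part of peak width was not tested.

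**Figure D4:**
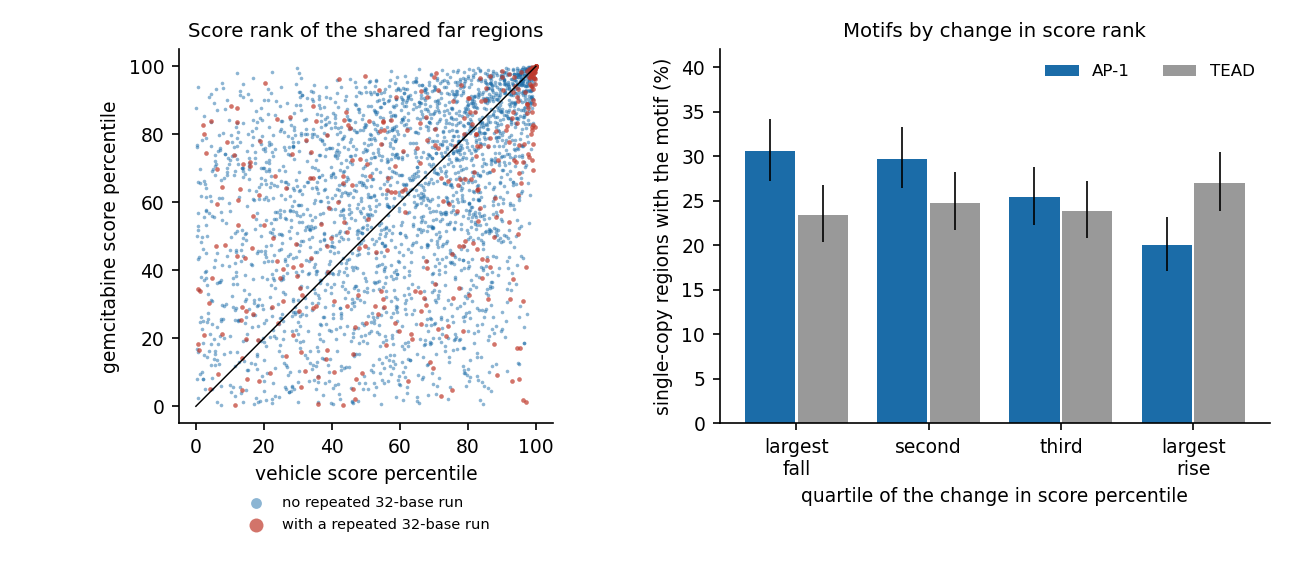
Left, score percentile of each shared far region in the vehicle list (x axis) and the gemcitabine list (y axis). Regions with a repeated 32-base run in the 300 bp round the midpoint are in red. Right, share of single-copy regions with AP-1 or TEAD letters (y axis, percent) by quartile of the change in percentile, with Wilson 95% intervals; AP-1 went from 30.6% to 20.0% and TEAD from 23.4% to 27.0%.

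Most regions stood alone. With regions joined across gaps of up to 12474 bp, 2611 regions had no neighbour, 173 pairs formed, and 77 regions fell into 22 clusters of 3 or more. The clusters of 4 to 6 regions, such as chr16:46394026-46428478 (6 regions) and chr2:132996062-133020635 (5 regions), held repeated runs in every region. Single-copy clusters had 3 regions each. One at chr1:201991876-202004762 lay 12104 to 23910 bp from the start of ELF3, an epithelial ETS factor, and one at chr6:134609023-134629116 near SGK1, a glucocorticoid- and serum-induced kinase.

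The regions were nearest to 2126 protein-coding genes, of which 2071 were in the RNA table and 1836 could be tested. A single region was nearest to 1550 genes, 2 regions to 384 and 3 or more to 192. In single-copy sequence the most regions belonged to LRMDA, a melanocyte differentiation gene, with 12, of which 10 lay in its introns. MYC, CAMTA1 and TRIB1 had 7 single-copy regions each, and GAS1, SGK1 and ARRDC3 had 6. Genes with more regions were more often expressed. The share with at least 1 FPKM in vehicle cells was 55.6% of genes with no region, 71.7% with 1, 79.5% with 2 and 82.2% with 3 or more, and the median level was 2.79, 9.37, 15.1 and 13.3 FPKM. A shared region at the gene's own start was also more frequent, at 11.6%, 14.4%, 14.9% and 16.8%.

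Genes nearest to a shared distal region held a larger share called higher after gemcitabine than all genes tested, given as counts with no test of the difference. A gene was called when its edgeR quasi-likelihood p, adjusted by Benjamini-Hochberg over all 14854 genes tested, was under 0.05, the fold exceeded 1.5 and the mean FPKM differed by at least 1. Of the 1836 tested genes, 145 (7.90%, 6.75 to 9.22%) were called higher and 88 (4.79%, 3.91 to 5.87%) lower, beside 5.69% higher and 4.43% lower of all genes tested. The lower share is near the background. Among genes with at least 1 FPKM the higher share was 9.12% near a region and 6.91% of all. Genes nearest to a gemcitabine-only far region had 6.51% (5.57 to 7.60%) higher and those nearest to a vehicle-only one 6.96% (5.90 to 8.19%). Both intervals overlap that of the genes nearest to a shared region. With libraries scaled by their totals in place of TMM factors, 190 (10.3%) were higher and 45 (2.45%) lower, beside 7.84% and 2.81% of all genes, which puts the lower share under the background. By limma on log2(FPKM + 1), 61 (3.32%) were higher and 13 (0.71%) lower, beside 2.02% and 0.70% of all genes. DESeq2 called 133 (7.49%) higher and 87 (4.90%) lower, beside 5.14% and 4.42% of the genes it gave an adjusted p.

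The larger share called higher lay with regions close by. The background was 5.69% higher and 4.43% lower of all genes tested. With a region within 50 kb, 128 of 1296 genes (9.88%, 8.37 to 11.6%) were called higher and 52 (4.01%) lower. Where every region was beyond 50 kb, 17 of 540 genes (3.15%, 1.97 to 4.98%) were higher and 36 (6.67%, 4.85 to 9.09%) lower. The genes of the near set were also more highly expressed, with a median of 16.9 FPKM in vehicle cells against 9.30 FPKM; the part of the expression level was not tested. Within genes of at least 1 FPKM the near set had 11.2% higher and 4.56% lower, beside 6.91% and 5.38% of all such genes tested.

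AP-1 letters were more frequent in regions whose nearest gene was called higher than in those whose gene was called lower. They stood in 31.8% (25.8 to 38.3%) of 211 regions and 17.0% (11.7 to 24.1%) of 141. The 2286 regions whose gene was not called had 25.5% (23.8 to 27.4%), which overlaps both intervals. The 211 regions belong to 145 genes and the 141 to 88, and the intervals treat regions of 1 gene as independent. In single-copy regions the shares were 31.8%, 27.1% and 16.4% for higher, not called and lower. The median distance to the start over all regions was 22140, 35300.5 and 50399 bp in the same order. The score percentile rose after gemcitabine in 58.8% (52.0 to 65.2%) of the regions by genes called higher, in 52.9% (50.8 to 54.9%) by genes not called and in 52.5% (44.3 to 60.5%) by genes called lower. The medians went from 53.5 to 65.5 in the first group and from 64.5 to 66.6 in the second, as ranks in 2 peak lists of unequal length. Seen by gene, 58 of 599 genes (9.68%) with an AP-1 region were called higher and 22 (3.67%) lower. Without such a region, 87 of 1237 (7.03%) were higher and 66 (5.34%) lower. Beside these stand 5.69% and 4.43% of all genes tested.

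**Figure D5:**
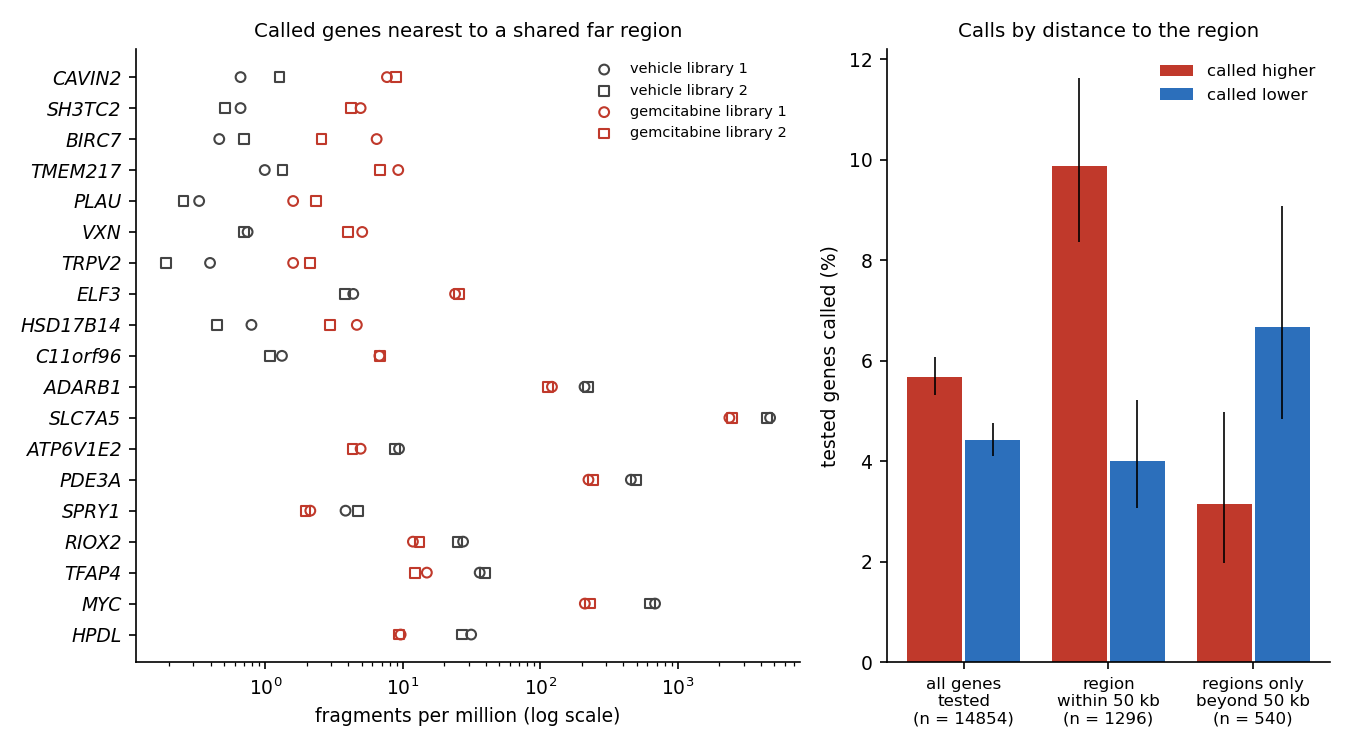
Left, fragments scaled by library size (CPM) in each RNA library (x axis, log scale) for genes nearest to a shared far region, namely 10 called higher and 9 called lower, among those with the greatest change. Right, percent of tested genes called higher or lower, with Wilson 95% intervals, for all genes, genes with a region within 50 kb and genes with regions only beyond 50 kb; the higher share was 5.69%, 9.88% and 3.15%.

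Among the genes that rose most were regulators and membrane proteins of low level in vehicle cells. CAVIN2, a coat protein of caveolae, was counted with 10 and 20 fragments under vehicle and with 101 and 119 under gemcitabine, a log2 fold change of 2.98 (SE 0.29, edgeR adjusted p = 2.3e-06). ELF3, with 3 regions between 12104 and 23910 bp from its start, had 66 and 60 fragments and then 316 and 340 (log2 2.49, SE 0.14, edgeR adjusted p = 3.3e-08). In both genes the arms were well apart. PLAU, the urokinase protease, with a region 1747 bp from its start, had 5 and 4 fragments and then 21 and 31 (log2 2.61, SE 0.49, edgeR adjusted p = 0.00072). BIRC7, an inhibitor of apoptosis, went from 7 and 11 to 85 and 34 fragments, the gemcitabine libraries differing between themselves but both above vehicle (log2 2.82). The calcium channel gene TRPV2, whose region carries the printed NRF1 match at the start of SNHG29, had 6 and 3 and then 21 and 28 fragments (log2 2.52). The rest of the 10 were SH3TC2, TMEM217, VXN, HSD17B14 and C11orf96, with log2 changes of 2.39 to 2.84. BIRC7, PLAU, VXN, TRPV2 and HSD17B14 were not called by limma on log2(FPKM + 1).

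The largest falls included 2 transcription factors, MYC and TFAP4, and an amino acid importer. MYC, the growth-promoting transcription factor, had 10326 and 9836 fragments with vehicle and 2775 and 3034 after gemcitabine (log2 -1.68, SE 0.08, edgeR adjusted p = 5.5e-09). Its 7 regions lay 3730 to 438378 bp from the start, 5 of them in non-coding transcripts that include PVT1, and all 7 were single-copy. Their percentiles went from 36.6 to 19.7, 93.7 to 97.7, 83.5 to 84.0, 90.9 to 93.0, 85.5 to 43.8, 50.8 to 46.5 and 83.4 to 80.5 in order along the chromosome. SLC7A5, which imports large neutral amino acids, had 70854 and 70176 and then 31203 and 32792 fragments (log2 -1.03, SE 0.07, edgeR adjusted p = 1.3e-07), with an intronic region 8653 bp from its start at percentiles 89.3 and 92.5. TFAP4, a helix-loop-helix factor, went from 548 and 625 to 197 and 162 fragments (log2 -1.59), and HPDL, a mitochondrial dioxygenase, from 475 and 422 to 127 and 124 (log2 -1.72). The receptor kinase inhibitor SPRY1 had 58 and 74 and then 28 and 26 fragments (log2 -1.17), and its call was lost without vehicle library 2. The other falls described here were RIOX2, PDE3A, ATP6V1E2 and ADARB1, between -1.17 and -0.98. RIOX2, SPRY1, ATP6V1E2 and ADARB1 were not called by limma.

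Genes with the most regions moved in both directions. LRMDA, with 12 regions, had 119 and 106 fragments and then 162 and 185 (log2 0.74, SE 0.15, edgeR adjusted p = 0.0016), a call lost without vehicle library 2. DUSP10, a phosphatase of p38 and JNK kinases with 6 regions, went from 212 and 209 to 341 and 344 (log2 0.82, SE 0.11, edgeR adjusted p = 3.3e-05). SIK1, a salt-inducible kinase with 5 regions, went from 9867 and 9800 to 4683 and 4857 (log2 -0.93, SE 0.07, edgeR adjusted p = 2.2e-07). The SIK1 regions nearest to its start ran against the transcript in rank, from 49.6 to 93.8 and from 52.4 to 92.5. SGK1 with 6 regions had 9556 and 9930 and then 6068 and 5837 fragments (log2 -0.60), but the call was lost with library totals and without vehicle library 1 or gemcitabine library 2. TRIB1, GAS1 and ARRDC3 had log2 changes of -0.33, -0.38 and -0.35 and CAMTA1 of 0.05, none of them called.

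Genes of 6 lists were nearest to a shared distal region in 28.6% to 40.9%, beside 10.1% of all genes in the RNA table. The lists were chosen with earlier results of these data known, and the shortest had 10 genes to count. Most list genes could be tested, whereas the 10.1% includes genes too low to test. Of the 14854 genes tested, 1836 were nearest to a region. Of 83 genes for transcription factors that read the motifs, 26 had a region (47 regions), and of the 79 tested, 10 were called higher and 11 lower. The background for this and the following lists is 5.69% of all genes tested higher and 4.43% lower. ETS1, a founding ETS factor with 3 regions, went from 380 and 416 to 545 and 628 fragments (log2 0.67, SE 0.10, edgeR adjusted p = 7.9e-05), a call lost without gemcitabine library 2. FOS, a component of AP-1 with 2 regions 10903 and 18031 bp away, went from 3314 and 3327 to 1904 and 1788 (log2 -0.73, SE 0.07, edgeR adjusted p = 1.5e-06). Both of its regions rose in rank, from 4.35 to 83.5 and from 57.0 to 95.9. KLF4, an epithelial zinc-finger factor, had a log2 change of -0.91, GATA3 of -0.85, and FOXQ1 and the gene NRF1 of -0.66 and -0.62; the calls of FOXQ1 and NRF1 were lost with library totals, and those of GATA3 and NRF1 without vehicle library 1 and gemcitabine library 2, respectively. JUN (0.37), ATF3 (0.40), KLF6 (0.15), RUNX1 (0.22) and TEAD1 (-0.44) had regions and were not called.

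NF-kB targets moved in 1 direction: 13 of 14 were called higher (5.69% of all genes) and 0 lower (4.43%), with a median log2 change of 1.23 beside 0.01 over all genes tested. The list was chosen with earlier results of these data known. It holds IL1B, IL6, CXCL8 (IL8) and NFKB2, which the study had named as changed in the same RNA-seq. Its count is thus a description. Only 4 of them had a shared distal region, 7 regions in all. IL1B, an inflammatory cytokine, had a log2 change of 1.86, CXCL2, a neutrophil chemokine, of 1.40, LIF, a cytokine of the IL-6 family, of 1.24 and TNFAIP3, the ubiquitin editor that restrains NF-kB, of 1.22. CXCL2 went from 23 and 22 to 61 and 49 fragments (SE 0.28, edgeR adjusted p = 0.0013). The LIF region at chr22:30591563-30593351, with TEAD letters, was among the strongest in both arms (237.45 and 230.28). Of the 4 TNFAIP3 regions, those 89543, 42069 and 16464 bp from the start rose in rank, from 17.6 to 87.0, 31.0 to 96.4 and 48.1 to 87.6, and the one 185401 bp away had 81.3 and 76.4.

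Of the genes of the ductal and mesenchymal state, 7 of 21 tested were called higher (5.69% of all genes) and 0 lower, and 9 of 22 had a region. S100A2, a calcium-binding protein, had 232 and 223 and then 414 and 393 fragments (log2 0.94, SE 0.10, edgeR adjusted p = 6.9e-06). TGFBI, a matrix protein induced by TGF-beta, with 2 regions, went from 6219 and 6162 to 9393 and 10105 (log2 0.77). KRT8 (log2 0.29), CD44 (0.36) and ITGB1 (-0.02; 4 regions) were not called. Of 21 Hippo-YAP targets, 5 were called higher and 2 lower, but none of the 7 with a region was called, MYOF and TGFB2 with 3 regions each among them (log2 -0.14 and 0.05). YAP1 itself had 1 region and a log2 change of 0.07. Of 12 genes of the DNA damage and p53 response, 5 were called higher and 1 lower; GDF15, a stress-induced cytokine with a region 1335 bp away, had a log2 change of 2.17, and GADD45B with 3 regions was lower by the main scaling (-0.68) but not with library totals. Of 10 pancreatic lineage genes, 5 could be tested and 0 were called (SOX9 with 2 regions, -0.18; GATA6 with 1, -0.40).

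For 7 of the genes called higher on these lists a single-copy region outside untranslated exons held AP-1 letters. For each, 81 bases round the match are shown, on the plus strand of GRCh37 with the AP-1 match in capitals, because these are distal sequences beside genes that rose. Where a gene had more than 1 such region, the one whose lower percentile of both lists was the higher is shown.
IL1B, chr2:113627210-113627290: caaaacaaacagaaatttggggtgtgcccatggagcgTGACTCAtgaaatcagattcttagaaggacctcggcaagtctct
CXCL2, chr4:74982874-74982954: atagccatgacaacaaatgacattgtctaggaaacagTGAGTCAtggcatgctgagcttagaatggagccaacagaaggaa
TNFAIP3, chr6:138002266-138002346: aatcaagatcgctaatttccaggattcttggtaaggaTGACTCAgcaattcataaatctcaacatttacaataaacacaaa
TGFBI, chr5:135347202-135347282: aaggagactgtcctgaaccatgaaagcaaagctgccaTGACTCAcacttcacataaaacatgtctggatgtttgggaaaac
S100A2, chr1:153545387-153545467: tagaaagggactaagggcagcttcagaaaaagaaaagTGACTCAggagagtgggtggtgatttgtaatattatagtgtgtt
ELF3, chr1:201998366-201998446: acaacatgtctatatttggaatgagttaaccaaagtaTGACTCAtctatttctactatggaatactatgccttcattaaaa
ETS1, chr11:128366823-128366903: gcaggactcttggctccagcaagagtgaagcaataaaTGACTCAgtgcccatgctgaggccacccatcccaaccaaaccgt
Between vehicle and gemcitabine the percentile of these regions went from 66.8 to 62.4 for IL1B, 10.0 to 6.27 for CXCL2, 81.3 to 76.4 for TNFAIP3, 79.6 to 70.0 for TGFBI, 4.83 to 8.44 for S100A2, 75.5 to 74.99 for ELF3 and 41.8 to 38.8 for ETS1. Beside 7 transcripts chosen for being called higher, 6 of the printed regions stood lower in rank, by less than 10 points each. Of the AP-1 regions of the same genes that are not printed, that of ETS1 at chr11:128079969-128080779 fell from 81.0 to 37.2, that of ELF3 went from 52.9 to 45.1 and that of TGFBI from 59.9 to 67.9. AP-1 letters were also in the region of KLF4 and in 1 of the 3 regions of GADD45B, genes that were called lower.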

How the data were processed

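RNA and DNaseI libraries of PANC1 cells were compared between vehicle and gemcitabine. For RNA, the authors aligned single-end reads with TopHat2 2.0.8 to hg19 and deposited Cuffdiff 2.0.2 values per gene and library, as estimated counts of fragments and as FPKM; 2 further columns of scaled values were not used. For DNaseI, the authors called MACS peaks per library (p cutoff 1e-05) and deposited a score per peak, whose minimum of 50 is -10 log10 of that cutoff; the version of MACS and the aligner are not given in the sources used here. The peak lists hold no read counts, so DNaseI depth is unknown.

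Distances, features and motifs (300 bp round the midpoint, both strands) were computed with Python 3.11.15 on GRCh37 with the Gencode 44 annotation mapped to that build. Percentiles are ranks within each list. Wilson intervals are at 95%. Estimated counts were rounded, genes with a sum of at least 10 across all 4 libraries kept, and edgeR 4.0.16 (TMM, quasi-likelihood) fitted to the whole table without covariates; limma 3.58.1 and DESeq2 1.42.0 were alternatives. Called genes also had a mean of at least 0.1 FPKM in 1 arm. The scripts were tested on simulated data.

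Members and gene lists were chosen with earlier results of these data known. Regions were named by rank in both lists, width, distance, closeness to the limits, change of rank and clustering; genes were named as the 10 largest rises and falls of those nearest to a region, those with most regions and those of the lists. A few such genes are left out of the text. Named strong regions and printed sequences were limited to single-copy sequence, a step added after values were seen, and the JAK1, LDHA, ADAMTS18 and LRP5 regions were singled out among the largest changes after their values were seen. The libraries of an arm are called 1 and 2 in the order of the table, whose own index starts at 0.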

Additional observations from a re-analysis of the deposited data

How the results depend on the processing

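No called gene that is named changed sign with another scaling or without any 1 library, whereas some genes of the lists with changes near 0 that were not called did, and 3 orders turned. Regions between genes outnumbered those in introns at a score of at least 100, more genes were lower than higher by the adjusted p alone, and the share called lower near a region went under that of all genes with library totals (2.45% and 2.81%) and without gemcitabine library 1 (4.09% and 4.44%). No paired analysis was possible because the RNA table numbers its libraries within each arm and nothing says that they follow the numbers in the sample titles. With 1 DNaseI library in each arm, depth and the spread between libraries limit every statement on peaks, and no openness was compared by a test.

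A score of at least 100 in both lists left 623 regions, of which 34.5% lay in introns, 22.8% in non-coding transcripts, 40.3% between genes and 6.90% within 5 kb of a start, with CTCF in 0.16%, SP/KLF in 15.6% and ETS in 1.28%. With a limit of 5 kb from a start, introns held 38.8%, exons 1.60%, intergenic stretches 38.5%, and SP/KLF stood in 9.65%. Counting the starts of every Gencode transcript gave 16.4% in non-coding transcripts, 39.1% between genes, SP/KLF in 8.14% and ETS in 0.24%. With any base of the peak in place of the midpoint, 37.0% touched introns, 6.72% exons, 22.97% non-coding transcripts and 33.3% lay between genes, each region counted in 1 class. Single-copy regions, an alternative chosen after seeing the data, gave 43.8% in introns, 33.6% between genes and AP-1 in 26.4%. Searching the whole peak gave AP-1 46.7%, TEAD 59.1%, CTCF 1.32%, SP/KLF 23.9% and ETS 1.22%, and the central 150 bp gave 14.1%, 14.2%, 0.23%, 6.26% and 0.23%, since a longer window holds more matches.

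For genes nearest to a region, limma on log2(FPKM + 1) called 61 higher and 13 lower (3.32% and 0.71%, beside 2.02% and 0.70% of all genes), the adjusted p alone 406 and 419 (22.1% and 22.8%, beside 18.5% and 20.03%), library totals 45 lower, and regions within 50 kb 52 lower. The cause of the difference from limma and library totals was not tested. DESeq2 called 133 and 87 (7.49% and 4.90%, beside 5.14% and 4.42%). Leaving out each library in turn gave 127 to 150 genes higher and 74 to 105 lower. A lone library left in an arm is assumed to vary like the other arm.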
